A study of Mus musculus with 4 samples.

Results

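The genes described here are 7 genes for surface molecules that restrain or tune T cells and natural killer cells: Lag3, Tigit, Havcr2 (TIM-3), Cd160, Cd226, Cd96 and Cd200. They were taken by name, as a family of inhibitory receptors, and matched by Ensembl identifier, which found 7 of 7 among the 50600 genes of each count file. The family name does not hold for every one of them: Cd226 is an activating receptor that competes with Tigit for ligands, and Cd200 is a ligand whose receptor carries the inhibitory signal. The study sequenced RNA from primary regulatory T cells of mouse strain C57BL/6NJ in 4 libraries, labelled biological replicates 1 to 4 of 1 group, with no other genotype, treatment or time to compare. Such cells, a Foxp3-dependent lineage of CD4+ lymphocytes, hold back immune responses. The sample names inside the files add that the cells were activated and sorted, with a time of 72 h. The labels link a protocol for differentiating CD4+ T cells, leave the age unknown and the sex not collected, and title the assay total RNA-seq, while the title of the library protocol they point to speaks of poly(A)+ RNA.

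All 4 libraries refer to 1 donor record but have biosample records of their own, and nothing in the labels says whether they came from separate animals or cultures, so the p-values below measure the spread between these libraries, which may be technical. In sex-linked RNA, the libraries stood apart in pairs. Xist, the noncoding RNA that coats an inactive X, was at 312 and 331 TPM in replicates 1 and 2. In replicates 3 and 4 it was at 0.539 and 2.38 TPM. The Y-linked Ddx3y was at 0.0664 and 0.0264 TPM in the first pair and 26.0 and 31.2 TPM in the second. Xist with almost no Y-linked RNA is the pattern of female cells, and the reverse that of male cells. The pairs thus differed in the sex of the cells, so the 4 libraries were not all from 1 animal, despite the single donor record. The test of variation below treated all 4 libraries as 1 group. A TPM value is a gene's share of all transcripts, corrected for exon length and depth and scaled to the same sum in each library. Total counts were 46044354, 72147632, 94983494 and 32648138, so a floor of 3 counts lay between 0.0316 and 0.0919 CPM (counts scaled to library size, with no length correction). Replicate 1 stood apart in its highest level of the RNA Gm42418 (11900 TPM, against 1560 to 4340 in the others) and of Malat1 (131 TPM, against 42.5 to 55.2). The regulatory T cell markers matched the label: 8 of 8 reached 1 TPM in every library, led by Il2ra at 1769 TPM, and their summed level ran from 6084 to 6543 TPM.

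These molecules fall into separate ligand systems. Tigit, Cd226 and Cd96 share ligands of the nectin family, chiefly the poliovirus receptor Pvr (CD155), and deliver opposing signals on binding them. Lag3 is a relative of Cd4 that binds MHC class II. Havcr2 binds galectin-9 and Ceacam1, Cd160 binds the TNF receptor family member HVEM (Tnfrsf14), and Cd200 on a T cell engages Cd200r1 on myeloid cells. Several of these receptors are known on activated regulatory T cells, and they also mark exhausted CD8+ T cells.

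The stretches before 4 of the genes' starts are shown because Tigit, Cd200 and Cd96 lie on chromosome 16 and were all well expressed, whereas Havcr2 was barely detected. RefSeq promoter entries (GRCm38.p6) were used for 5 of the 7 genes, with 6 entries. No entry was used for Lag3 or Cd226, so their promoters are not described. Each line holds the 250 bases upstream of the RefSeq start, 5′ to 3′ on the gene's strand, and capitals mark matches on either strand to 5 short motifs, whose letters follow the sequences. Positions are chr16:43664185-43664434 for Tigit, chr16:46120249-46120498 for Cd96 and chr16:45409054-45409303 for Cd200, all on the minus strand, and chr11:46454681-46454930 on the plus strand for Havcr2.
Tigit: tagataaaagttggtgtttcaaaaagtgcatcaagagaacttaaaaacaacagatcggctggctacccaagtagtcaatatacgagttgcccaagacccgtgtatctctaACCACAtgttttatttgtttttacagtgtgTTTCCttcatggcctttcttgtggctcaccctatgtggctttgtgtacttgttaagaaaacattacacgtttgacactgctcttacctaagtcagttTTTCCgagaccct
Cd96: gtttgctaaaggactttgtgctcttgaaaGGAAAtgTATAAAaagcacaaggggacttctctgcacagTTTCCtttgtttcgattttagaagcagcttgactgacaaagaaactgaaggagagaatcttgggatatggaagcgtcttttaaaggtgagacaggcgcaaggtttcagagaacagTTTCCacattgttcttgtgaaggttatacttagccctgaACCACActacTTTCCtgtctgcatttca
Cd200: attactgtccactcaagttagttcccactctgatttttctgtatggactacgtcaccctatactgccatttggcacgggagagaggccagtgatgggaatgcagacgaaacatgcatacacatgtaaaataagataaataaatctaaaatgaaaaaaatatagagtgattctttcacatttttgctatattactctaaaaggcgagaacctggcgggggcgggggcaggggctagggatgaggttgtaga
Havcr2: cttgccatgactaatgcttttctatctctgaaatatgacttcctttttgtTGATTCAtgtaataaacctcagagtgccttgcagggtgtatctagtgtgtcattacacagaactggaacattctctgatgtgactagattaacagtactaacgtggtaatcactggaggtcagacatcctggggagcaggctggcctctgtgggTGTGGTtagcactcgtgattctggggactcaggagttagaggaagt

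The motifs searched, which do not contain each other, were TGANTCA for the AP-1 family of transcription factors that T cell activation induces. For the RUNX family, which is active in T cells, the letters were TGTGGT. For forkhead factors such as Foxp3, the search used TGTTTAC. For NFAT, the calcium-dependent factor, a core of GGAAA was taken. The TATA box of promoters was read as TATAAA. The Tigit stretch held 1 RUNX and 2 NFAT matches, the Cd96 stretch 1 RUNX, 4 NFAT and 1 TATA match, and the Havcr2 stretch 1 AP-1 and 1 RUNX match. The Cd200 stretch held none of the 5 motifs, and none of the 4 held a forkhead match. Among 32851 mouse promoters of the same length, 14% held the RUNX letters, 55.6% the NFAT letters, 12.4% the TATA letters, 6.75% the AP-1 letters and 3.17% the forkhead letters, so the NFAT match in particular is common. The TATA match of Cd96 began 214 bases before the start. GC content was 40.0% for Tigit, 41.2% for Cd96, 42.4% for Cd200 and 44.8% for Havcr2, below the median of 52.4% over all promoters, and the 4 stretches held 5, 3, 6 and 2 CpG dinucleotides against a median of 6. A match describes the letters and is not a measured binding site.

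Levels of the 7 genes fell into a high and a low set. Cd96, Lag3, Cd226, Cd200 and Tigit lay between 34.86 and 77.73 TPM in every library, while Cd160 lay near 1 TPM and Havcr2 below it. Thus 5 of the 7 genes reached 1 TPM in every library, against 49.1% of all protein-coding genes (10680 of 21764). Among the 12114 genes at that level, Cd96 ranked 2783rd by mean TPM, Lag3 2920th, Cd226 3257th, Cd200 3998th and Tigit 4328th, which puts them at percentiles 77.0 to 64.3. In bulk RNA, fewer cells with a transcript and less transcript per cell cannot be told apart.

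**Figure D1:**
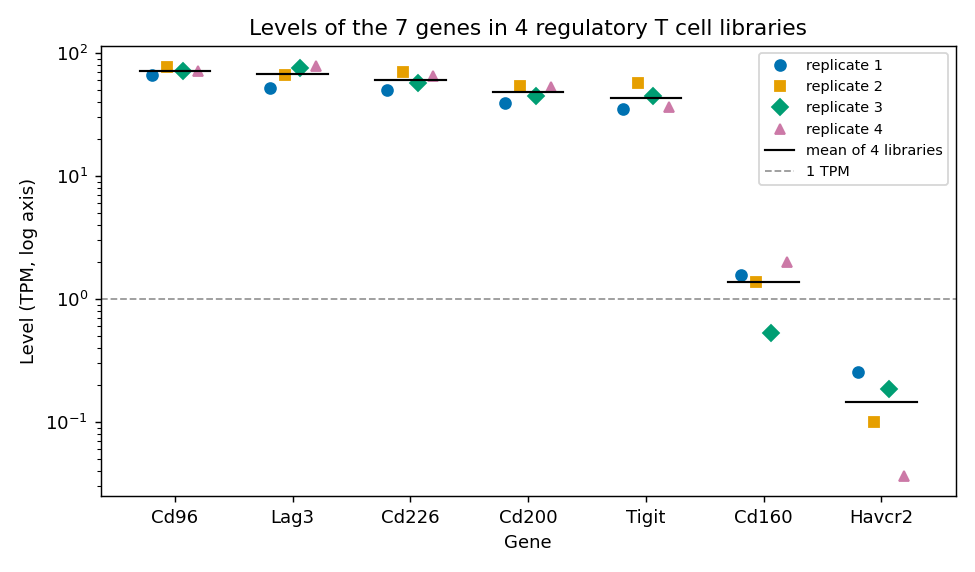
Level of each of the 7 genes (TPM, log axis) in the 4 libraries, 1 symbol per replicate, with the mean of 4 as a line and 1 TPM dashed. The 5 genes on the left lie between 34.86 and 77.73 TPM, Cd160 between 0.5258 and 1.997 TPM, and Havcr2 at or below 0.2539 TPM.

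Most neighbours in the order of the high set did not differ beyond their spread. Cd96 exceeded Lag3 by 3.79 ± 10.8 TPM (SD, n = 4) and in 2 of 4 libraries. Lag3 exceeded Cd226 by 7.21 ± 10.2 TPM and in 3 of 4. Cd200 exceeded Tigit by 4.62 ± 8.92 TPM and in 2 of 4. Cd226 and Cd200 were the exception within a library: Cd226 was higher in 4 of 4, by 12.8 ± 2.55 TPM, although the ranges of both genes over the libraries overlapped. The step from Tigit down to Cd160 was 41.8 ± 10.3 TPM and that from Cd160 to Havcr2 1.22 ± 0.667 TPM, both in 4 of 4 libraries and with no overlap of ranges.

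Of the nectin-binding receptors, Cd96 was the highest and Tigit the lowest. Cd96, a receptor with high affinity for Pvr, stood at 66.64, 77.4, 70.96 and 71.32 TPM in replicates 1 to 4 (71.58 ± 4.43, SD, n = 4), from 1565 to 4574 counts per library. Its libraries lay within 1.16-fold of each other, the narrowest range of the 6 genes with enough counts to test. The gene lies on chromosome 16 from 46035657 to 46120251 of mm10, minus strand, with 2184 exonic bases.

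Cd226 (DNAM-1), the activating receptor of the system, stood at 50.26, 70.07, 57.47 and 64.52 TPM (60.58 ± 8.6, SD, n = 4). Replicates 2 and 4 were the higher ones and replicate 1 the lowest. It lies on chromosome 18 from 89197431 to 89270201, plus strand, with 2357 exonic bases.

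Tigit, the inhibitory receptor that carries an inhibitory tyrosine motif in its tail, stood at 34.86, 56.65, 44.89 and 36.17 TPM (43.14 ± 10, SD, n = 4). Replicate 2 was the highest, and replicates 1 and 4 lay close together at the bottom. Its counts, 486, 1193, 1276 and 350, were the smallest of the high set, over a gene model of 963 exonic bases (chromosome 16 from 43648861 to 43664184, minus strand).

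Compared within each library, Tigit was below both of its relatives. On the log2(TPM + 1) scale, Tigit minus Cd226 was -0.515, -0.302, -0.349 and -0.818 in replicates 1 to 4, with a mean of -0.50 ± 0.233 (SD, n = 4). Tigit minus Cd96 averaged -0.74 ± 0.242 and Cd96 minus Cd226 0.25 ± 0.127, each with 1 sign in 4 of 4 libraries. Every one of the 7 contrasts computed in this family had that property, so each has an exact two-sided sign-flip permutation p of 0.13, the smallest that 4 libraries allow, and the same value after Benjamini-Hochberg adjustment; none could pass 0.05. The size of the Tigit contrasts rests on the length correction: per CPM, without length, Tigit minus Cd226 was -1.72 and Tigit minus Cd96 -1.86, whereas with 200 bases taken off every length Tigit minus Cd226 was -0.28.

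As shares of the summed TPM of Tigit, Cd226, Cd96, Crtam and Pvrig, Cd96 made up 41.0 ± 2.43%, Cd226 34.5 ± 2.08% and Tigit 24.4 ± 3.0% (SD, n = 4). The Tigit share was 22.9, 27.7, 25.9 and 21% in replicates 1 to 4. Beside them, Crtam, a receptor for Cadm1, added 0.114 ± 0.0847%, and Pvrig, an inhibitory receptor for Nectin2, had no count in any library, below the floor of 3 counts. The sum itself ran from 152.1 TPM in replicate 1 to 204.3 in replicate 2.

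The regulatory T cells carried RNA of some of the ligands as well as of the receptors. Pvr, the main ligand, stood at 27.64, 32.49, 33.7 and 30.3 TPM, below each of the 3 receptors in every library. Nectin2 (CD112) stood at 9.707, 9.986, 13.63 and 13.93 TPM, higher in replicates 3 and 4. Nectin3 lay between 0.7496 and 1.093 TPM. Nectin1, a ligand of Cd96 in the mouse, had 1, 0, 12 and 5 counts, or at most 0.08803 TPM. Of the 6 nectin ligands listed, 2 reached 1 TPM in every library, the median of their mean levels was 0.769 TPM, and 0 of the 4 tested varied between libraries by the test described below.

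**Figure D2:**
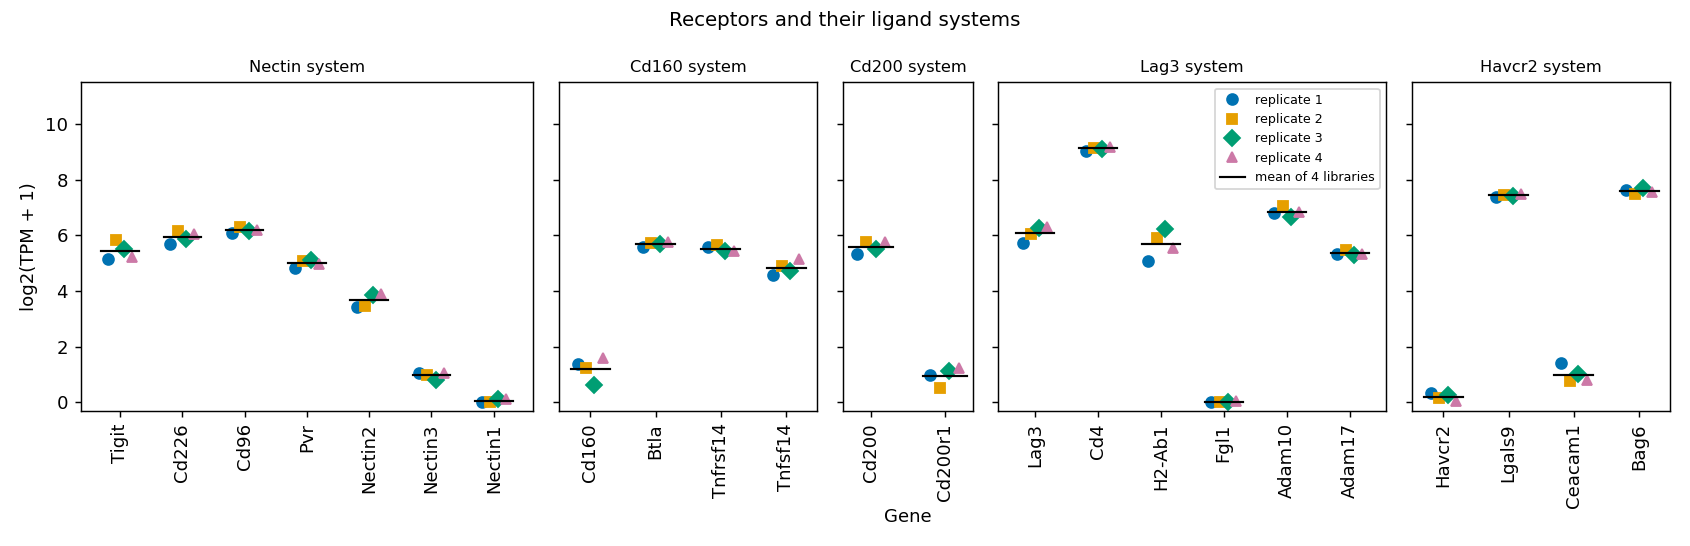
Level on the log2(TPM + 1) scale of the 7 genes and of ligands, partners and shedding proteases in 5 ligand systems, 1 symbol per library and the mean of 4 as a line. In the nectin system, Tigit, Cd226, Cd96, Pvr and Nectin2 are present, whereas Nectin1 and Nectin3 lie near the bottom. Cd160, Cd200r1, Ceacam1 and Havcr2 also lie near the bottom, beside partners such as Btla, Cd200, Lgals9 and Bag6.

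Lag3, the inhibitory relative of Cd4, stood at 52.11, 65.89, 75.44 and 77.73 TPM in replicates 1 to 4 (67.79 ± 11.6, SD, n = 4), from 1591, 3039, 4696 and 1647 counts. Replicate 1 was the lowest and replicates 3 and 4 were the highest. Cd4, the coreceptor for the same MHC class II molecules, stood at 526.8 to 577.4 TPM, and Lag3 minus Cd4 was -3.04 ± 0.211 on the log2(TPM + 1) scale, with replicate 1 at -3.31 and the others between -3.09 and -2.87. Both genes sit together on chromosome 6: Lag3 runs from 124904361 to 124911705 on the minus strand, and 16140 bases separate it from the end of Cd4. On its other side, Ptms begins 1976 bases away.

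Genes for Lag3's ligands were uneven. Fgl1, a secreted ligand, had 0, 0, 0 and 1 counts, and Clec4g had none. Lgals3 (galectin-3) stood at 6.618 to 8.753 TPM. The MHC class II beta chain H2-Ab1 stood at 33.0, 59.41, 73.75 and 46.21 TPM, while its alpha chain partner H2-Aa reached at most 0.6373 TPM. Another MHC class II gene, H2-Eb1, stood at 9.568, 13.52, 15.31 and 17.49 TPM in replicates 1 to 4. H2-Ab1 was 1 of the genes that varied between libraries beyond the trend (edgeR goodness of fit, Benjamini-Hochberg adjusted p = 2.6e-04). Adam10 and Adam17, the proteases that shed Lag3 from the surface, stood at 114.3 ± 12.6 and 39.86 ± 2.19 TPM (SD, n = 4). Lgals3, Clec4g, H2-Aa, H2-Eb1 and the proteases were singled out after their values were seen.

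Havcr2 was close to undetected. It had 10, 6, 15 and 1 counts in replicates 1 to 4, or 0.2539, 0.1008, 0.1868 and 0.03658 TPM (0.1445 ± 0.0954, SD, n = 4), and the single count of replicate 4 is under the floor of 3 counts. Lag3 minus Havcr2 was 5.90 ± 0.355 on the log2(TPM + 1) scale, which understates the distance because of the added 1; with 0.1 added in its place it was 8.19. The gene lies on chromosome 11 from 46454935 to 46481255, plus strand. Its ligand Lgals9 (galectin-9) was abundant, at 164.6 to 177.4 TPM, and so was Bag6, a protein that binds the Havcr2 tail, at 194.2 ± 12.8 TPM. Ceacam1, another partner, stood at 1.63, 0.6773, 1.004 and 0.72 TPM. Its relatives Timd4 and Havcr1 had at most 3 counts in a library, while Timd2 stood at 1.527 to 3.779 TPM; these 3 were singled out after their values were seen.

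Cd160, a lipid-anchored receptor best known on natural killer and CD8+ T cells, had 60, 79, 41 and 53 counts, or 1.569, 1.367, 0.5258 and 1.997 TPM (1.365 ± 0.618, SD, n = 4). Replicate 3, the deepest library, was the lowest, and the other 3 lay above 1 TPM. Btla, the other receptor for HVEM, stood at 46.47 to 53.2 TPM, so Cd160 minus Btla was -4.48 ± 0.415 on the log2(TPM + 1) scale, and -5.23 with 0.1 added in place of 1. HVEM itself (Tnfrsf14) stood at 45.09 ± 3.4 TPM and its cytokine ligand LIGHT (Tnfsf14) at 27.62 ± 5.07 TPM (SD, n = 4). The Cd160 gene (chromosome 3 from 96798763 to 96829351, minus strand) is the 1 gene of the 7 whose exons overlap those of another gene, by 68 bases (2.57%) of Pdzk1 on the opposite strand, and the counting was strand-specific.

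Markers of cells in which Cd160 and Havcr2 are usually found were low. Of 7 natural killer and ILC1 markers, 2 reached 1 TPM in every library, their summed level was 3.916 to 4.563 TPM, Ncr1 had no count, and Eomes was the highest. Of 4 CD8 T cell markers, 1 did (Cd8b1), the sum was 12.64 to 16.69 TPM, and Gzmk had no count. Of 8 dendritic cell and macrophage markers, 2 did, the sum was 7.849 to 10.5 TPM, Clec9a had no count, and Cd68 was the highest. Cd160 was lowest in replicate 3, where the natural killer markers summed to 3.96 TPM, against 4.563, 3.916 and 4.273 in replicates 1, 2 and 4. The CD8 T cell markers summed to 16.48 TPM in replicate 3, near their highest, with Cd8b1 at 15.81 TPM and Cd8a at 0.6707 TPM. Members of the natural killer list went different ways. Eomes was at its highest in replicate 3, at 2.667 TPM, whereas Klrd1 and Klrc1 were at their lowest there, at 1.005 and 0.1195 TPM. The dendritic cell and macrophage markers had their lowest sum in replicate 3, at 7.849 TPM. Whether any of these cells had a part in the Cd160 values was not tested. The other marker lists summed to 2.711 to 3.957 TPM for gamma-delta T cells (2 of 4 genes at 1 TPM in every library, Tcrg-C2 the highest), 5.323 to 7.34 for B cells (1 of 5, Cd79b), 0.876 to 1.51 for platelets (0 of 4, Itga2b the highest, Pf4 and Ppbp without a count) and 9.022 to 9.838 for endothelium (1 of 4, Pecam1, with Cdh5 without a count). The 6 pan T cell markers summed to 2209 to 2583 TPM.

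Cd200 stood at 39.37, 53.64, 44.71 and 53.35 TPM (47.77 ± 6.96, SD, n = 4), from 1780 to 4382 counts. Replicates 2 and 4 were the higher ones and replicate 1 the lowest. Its receptor Cd200r1, found mainly on myeloid cells, stood at 0.9849, 0.4271, 1.183 and 1.321 TPM, so that Cd200 minus Cd200r1 was 4.64 ± 0.425 on the log2(TPM + 1) scale, and 5.55 with 0.1 added in place of 1. Cd200 lies on chromosome 16 from 45382135 to 45409053, minus strand.

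Tigit, Cd200 and Cd96 share a stretch of chromosome 16 of 2.47 Mb, which also holds Btla and the 4 genes Cd200r1, Cd200r2, Cd200r3 and Cd200r4. From Tigit to Cd96 there are 34 protein-coding genes, of which 19 reached 1 TPM in every library, against 49.1% of protein-coding genes in all. The nearest protein-coding neighbours of Tigit, Zbtb20 and Drd3, averaged 1.76 and 0.0544 TPM, and those of Cd96, Plcxd2 and Gm4737, averaged 22.1 and 2.74 TPM. Cd200 has Btla on one side, at a like level of 50.3 TPM, and Gm609 on the other, with a mean of 0 TPM. None of the 7 genes shares exonic bases with another gene on its own strand.

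Variation between libraries was tested with edgeR, which asks of each gene whether its counts differ between the 4 libraries more than those of genes with like abundance. Of 13478 genes tested, 51 (0.378%) were called at a Benjamini-Hochberg adjusted p under 0.05. Of the 7 genes here, 6 passed the filter on low counts and 0 were called, by edgeR or by the dispersion outliers of DESeq2. Lag3 was the 1 gene of the 6 below 0.05 before adjustment, as were 804 of all genes tested. Its adjusted p was 0.446 (edgeR). Both libraries with high Xist had less Lag3 than either of the others, so its spread cannot be told apart from a difference between the pairs. The SD over libraries on the log2 CPM scale was 0.0557 for Cd96, 0.175 for Cd226, 0.185 for Cd200, 0.253 for Lag3, 0.297 for Tigit and 0.801 for Cd160. Their median was 0.219, against 0.137 over all genes tested. These medians are not matched for level, whereas the test compares genes of like abundance. Adjusted p-values were 1.0 for Cd96, 0.997 for Cd226, 0.934 for Cd200, 0.88 for Tigit and 0.939 for Cd160. With a dispersion common to all genes, Cd160 was called (adjusted p = 7.94e-04, edgeR); without replicate 3 its SD was 0.284.

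**Figure D3:**
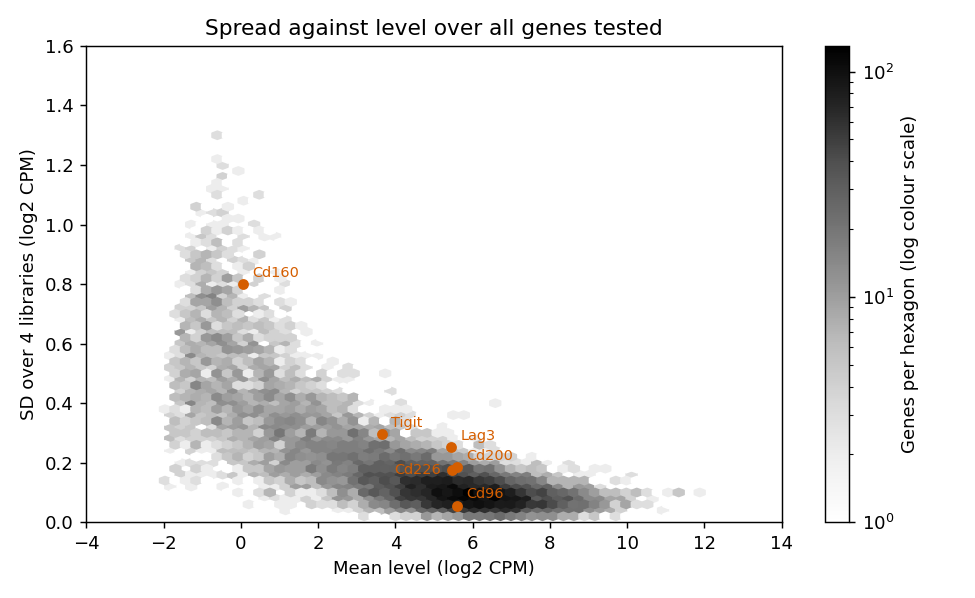
SD over 4 libraries against mean level, both in log2 CPM, for the genes tested, as hexagons shaded by the number of genes, with the 6 genes described here in orange. Cd96 lies low for its level, Lag3 at 0.253 lies at the upper side of the cloud, and 2 genes with an SD above 1.6 lie outside the axis.

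The libraries did not move all the genes alike, but replicate 1 was often the lowest. By TPM, 5 of the 6 tested genes (Cd96, Lag3, Cd226, Cd200 and Tigit) had their lowest level in replicate 1, against 36.5% of all genes tested. By CPM scaled with TMM factors, which correct for composition, the count was again 5 of 6, against 30.1% of all genes. Lists of genes beside the 7 were uneven in this respect by TPM, some above and some below the 36.5% of all genes tested. Lowest in replicate 1 were 5 of 8 receptor kin tested and 9 of 14 phosphatases, kinases and adaptors. The count was 6 of 14 for ligands and cofactors, 2 of 4 for nectin ligands and 3 of 6 for pan T cell markers. It was 5 of 19 for transcription factors and upstream genes and 2 of 8 for regulatory T cell markers, both below the share of all genes. Lag3 lay 0.33 below its mean log2 CPM in replicate 1, Tigit 0.24, Cd200 0.23, Cd226 0.22 and Cd96 0.07, while Cd160 lay 0.37 above. Tigit in replicate 4 was nearly as low, 0.23 below its mean. Without replicate 1, the SD of Lag3 was 0.156 in place of 0.253, that of Cd226 0.112 in place of 0.175, and that of Cd200 0.124 in place of 0.185; without replicate 2, that of Tigit was 0.198. Replicate 1 is also the library with the highest Gm42418 and Malat1, and their part in these values was not tested.

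**Figure D4:**
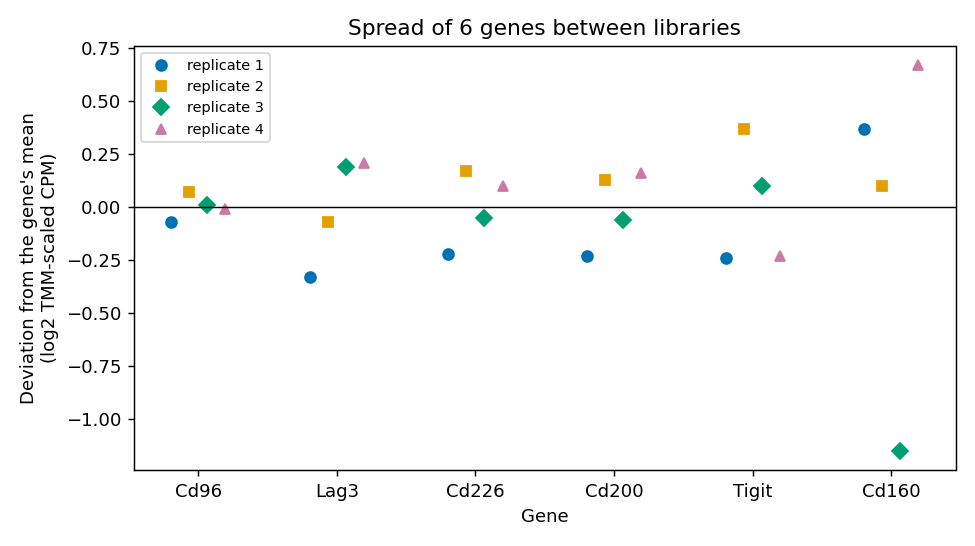
Deviation of each library from the gene's own mean, in log2 TMM-scaled CPM, for the 6 genes with enough counts to test, 1 symbol per replicate. Replicate 1 lies below the mean for 5 of the 6, and Cd160 ranges from -1.15 in replicate 3 to 0.67 in replicate 4.

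Among the 17 receptors listed as kin of these genes, 7 reached 1 TPM in every library, 4 had no count, the median of the mean levels was 0.193 TPM, and 0 of 8 tested were called. The 3 highest were Ctla4 (648.7 ± 57.2 TPM), Cd4 (556.7 ± 21.8) and Pdcd1, the gene of PD-1 (238.4 ± 3.73; SD, n = 4), all above each of the 7 genes described here. Vsir (VISTA) stood at 32.44, 49.84, 45.75 and 47.11 TPM. Its profile was the nearest to that of Tigit, with a root mean square difference of 0.213 in log2(TPM + 1) over the 4 libraries.

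By the same measure of likeness, taken over 4 libraries among the 119 listed genes, the nearest to Cd96 was Nfil3 (0.129), to Cd226 Pik3r1 (0.133), to Cd200 Btla (0.147) and to Lag3 Cd96 (0.222), followed by Nfil3 (0.223). The measure counts a difference in mean level as well as in profile.

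Genes that act below the receptors were expressed throughout. All 14 listed phosphatases, kinases and adaptors reached 1 TPM in every library, with a median of 150 TPM, and 0 of 14 were called. The 3 highest were the T cell receptor kinase Lck (777.7 ± 15.4 TPM), the adaptor Lat (529.3 ± 19.5) and Ptpn6, the gene of the phosphatase SHP-1 (454.7 ± 16.2; SD, n = 4). Of the 17 listed ligands and cofactors of Lag3, Havcr2, Cd160 and Cd200, 12 reached 1 TPM in every library, with a median of 39.9 TPM, and 1 of 14 tested was called (H2-Ab1). The highest were the integrin chains Itgb2 (772 ± 55.2 TPM) and Itgal (338.3 ± 11.7) and Bag6.

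Of 20 transcription factors and upstream genes known from coinhibitory receptor programmes, 18 reached 1 TPM in every library, with a median of 49.3 TPM, and 1 of 19 tested was called. Irf4 (629.5 ± 28.4 TPM), Nr4a1 (562.3 ± 18.8) and Foxp3 (463.4 ± 25.4; SD, n = 4) were the highest. The called gene was Il27ra, a chain of the receptor for IL-27, a cytokine known to raise Lag3, Tigit and Havcr2 on T cells: it stood at 66.66, 68.94, 38.39 and 37.71 TPM, higher in replicates 1 and 2 (adjusted p = 3.02e-07, edgeR). The same pair held the high Xist values, and the part of that difference in the Il27ra level was not tested. None of the 7 genes showed that split of replicates 1 and 2 against 3 and 4 with Il27ra's direction and without overlap. Lag3 alone split the pairs without overlap the other way. It reached no more than 65.89 TPM in the pair with high Xist, whereas the lower library of the other pair had 75.44 TPM. The part of the sex of the cells in the Lag3 level was not tested. Of the 2 factors best known for driving the programme, Maf stood at 18.46 to 25.29 TPM and Prdm1 at 0.2369 to 0.5448 TPM; both were singled out after their values were seen.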

How the data were processed

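The authors deposited raw counts per gene, not normalized. These came from featureCounts 1.4.6-p4 on GENCODE M13 exons, run on reads that STAR had aligned, as the file headers record; the labels name mm10. Counting was paired, needed both ends mapped, used strand setting 2 and left out multimapping and overlapping reads, per the file headers. TPM was computed here from counts and exon lengths. Symbols came from GENCODE M21, which matched 50376 of 50600 identifiers. Variation was tested with edgeR 4.0.16 in R 4.3.3 (intercept only, filterByExpr with a minimum count of 10, TMM, trended dispersion, goodness of fit), adjusted over all genes tested; DESeq2 1.42.0 was an alternative. Within-library contrasts used log2(TPM + 1) and exact sign-flip permutation. Named genes are the 7, their direct ligands and contrast partners, the 3 highest of each pathway list by mean TPM, genes called, and for each marker list the markers at 0 and the highest. The genes and lists were chosen with earlier results of these data known. Promoters are RefSeq's; the motifs were chosen after the levels were known.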

Additional observations from a re-analysis of the deposited data

Results flagged for a closer look

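Of 41 values examined over the 4 libraries (levels of the genes named by rule, the 7 contrasts and the 3 shares of the nectin receptors), 2 had 1 library far from the others, with a gap to the nearest library, relative to the whole range, above the critical value of Dixon's test; chance does so in about 1 of 20. Neither is 1 of the 7 genes. Itgb2, the integrin beta chain that pairs with Itgal, was lowest in replicate 1, at 690 TPM, with the other 3 libraries between 788.9 and 806.9 TPM. Ptpn6, the gene of SHP-1, was highest in replicate 4, at 478.9 TPM, with the others between 445.4 and 447.4 TPM.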

How the results depend on the processing

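No contrast changed sign under any alternative run. The 51 genes called as variable became 931 with a dispersion common to all genes, and the 0 of the 7 genes became 1 (Cd160). Leaving out a replicate gave 17 to 56 genes called: 17 without replicate 1, 56 without replicate 2, 23 without replicate 3 and 33 without replicate 4, from fewer libraries; 0 of the 7 genes were called in each case. No filter gave 38 genes, a mean of 1 CPM 67, DESeq2 size factors 51 and DESeq2's dispersion outliers 48, each with 0 of the 7. The count of 5 tested genes lowest in replicate 1 was 5 also with TMM-scaled CPM and with DESeq2 size factors, 2 alternatives chosen after seeing the data. Beside the Tigit contrasts given above, Cd96 minus Cd226 was 0.14 on the log2(CPM + 1) scale. No paired analysis was possible because there is 1 group. Depth limits Havcr2 (at most 15 counts) and Cd160 (41 to 79 counts).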
